A study of Rattus norvegicus with 6 samples.

Results

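The subject is the normal lumbar sensory ganglion of the rat, as measured on the 3 arrays of the control animals among the 6 arrays of a study of diabetic neuropathy. Those 3 arrays were chosen by their label as control, and the features kept were the 68842 transcript clusters of 70580 probe sets that carry a category in the deposited annotation. Of these clusters, 24753 are coding. Each array held RNA of 1 male Sprague-Dawley rat that weighed 180 to 220 g at the start, had received citrate buffer as the vehicle injection and was killed 8 weeks later. Ganglia of the lumbar levels 3 to 6 from both sides were pooled within each rat, and 100 ng of total RNA was labelled for an Affymetrix rat transcriptome array. The age of the rats and the cellular makeup of the pools were not given in the labels. Means, counts and ranks below are taken over the control arrays alone, though whether the arrays of diabetic animals were normalized together with them, and so could have shaped the values, was not given. With a single group no test between groups was possible.

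In dorsal root ganglia lie the cell bodies of sensory neurons, which carry touch, body position, temperature, itch and pain from the skin, muscles and viscera to the spinal cord. Each neuronal cell body is wrapped by satellite glial cells, its axon is ensheathed by myelinating or non-myelinating Schwann cells, and fibroblasts, vessels and resident macrophages fill the space between. Nociceptors are small neurons that detect harmful stimuli, and are usually divided into peptidergic ones, which release CGRP and substance P, and non-peptidergic ones, which carry the receptors Ret and P2rx3, whereas large myelinated neurons carry touch and proprioception.

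Signals are log2 values per transcript cluster and ran from 1.75 to 19.93. A cluster was called above background where its signal exceeded the 95th percentile of the 1153 intron control probe sets of the same array on all 3 arrays. That threshold lay at 7.25 on control replicate 1, 7.35 on control replicate 2 and 7.88 on control replicate 3, so control replicate 3 decided the call for many dim clusters. Exon controls lay well above intron controls. The area under the receiver operating curve that separates the control classes was 0.918, 0.922 and 0.902 on the 3 arrays. A signal also depends on how strongly a cluster's probes bind, so an order of signals is not an order of RNA molecules, and a signal under the threshold does not show that a gene is silent.

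Above background lay 6356 of the 24753 coding clusters (25.7%), and the median coding signal was 5.34. Non-coding clusters lay far lower as a class, with 449 of 25625 above background (1.75%) and a median of 3.61. The array medians of the coding class were 5.34, 5.33 and 5.34, and those of the non-coding class 3.61, 3.55 and 3.70, so the gap between the classes was the same on every array to within 0.2 log2 units.

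**Figure D1:**
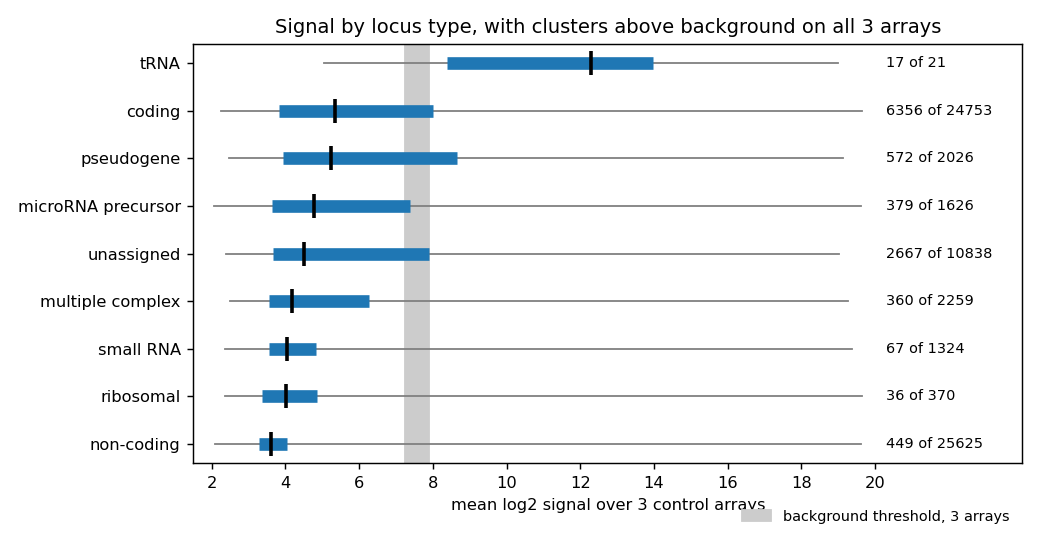
Signal by locus type of the deposited annotation (x axis, mean log2 signal over the 3 control arrays). The thick bar spans the quartiles, the tick is the median, the thin line runs from the lowest to the highest cluster, the grey band spans the background thresholds of the 3 arrays from 7.25 to 7.88, and the figures at the right count clusters above background. Transfer RNA clusters had the highest median, at 12.3, and non-coding clusters the lowest, at 3.61.

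The other locus types fell between or around these. Pseudogenes reached 28.2% above background (572 of 2026), unassigned clusters 24.6% (2667 of 10838) and microRNA precursors 23.3% (379 of 1626). Small RNA clusters reached 5.06% and ribosomal ones 9.73%, while 17 of 21 transfer RNA clusters, all on the mitochondrial chromosome, passed. The median number of probes was 94 for coding clusters and 30 for every other locus type. Among coding clusters the share above background moved with the number of probes, from 13.5% at up to 30 probes to 40.1% at over 200. At exactly 30 probes, the commonest number, 12.5% of coding, 1.88% of non-coding, 25.4% of unassigned and 26.8% of pseudogene clusters passed, so with probe number held equal the coding share lay below that of pseudogenes and above that of non-coding clusters.

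Mitochondrial messages and cytoskeletal genes of neurons headed the coding clusters with a single symbol. Of the 25 with the highest mean, 9 were mitochondrial, namely COX1, CYTB, ND1, ND4, ND5, ND2, COX2, ATP6 and ND3, which encode subunits of the respiratory chain and of ATP synthase. COX1, at chromosome M, measured 19.59, 19.93 and 19.38 on control replicates 1, 2 and 3. Each of these was at or close to the highest value of its array, and 21 clusters, among them 7 mitochondrial coding ones, sat within 0.1 log2 units of the highest value on every array. Clusters that close to the ceiling have no order among themselves.

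Hspa8, a constitutive chaperone, read 19.59, 19.81 and 19.37 and was within 0.1 log2 units of the highest value on control replicates 1 and 3. Below the ceiling stood Stmn2, a regulator of axonal microtubules, at 19.44, 19.62 and 19.26. Stmn2 is placed by the deposited annotation at chromosome 2, 95424251 to 95472212, on the minus strand. Control replicate 2 was highest and control replicate 3 lowest for Stmn2 and for all of the 25 but Pcp4 and Rps29. The alpha tubulins Tuba1a (19.32), Tuba1b (19.04) and Tuba1c (18.74) followed, with the actin-binding peptide gene Tmsb4x (19.06), the heavy and light neurofilament chains Nefh (18.95) and Nefl (18.72), the calmodulin-binding Pcp4 (18.86), the microtubule-associated Map1b (18.74) and the ribosomal Rps29 (18.71). Zwint, named for a kinetochore protein, stood among them at 18.75. The next ranks held Eef1a1, the lysosomal protease gene Ctsb and Gapdh.

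**Figure D2:**
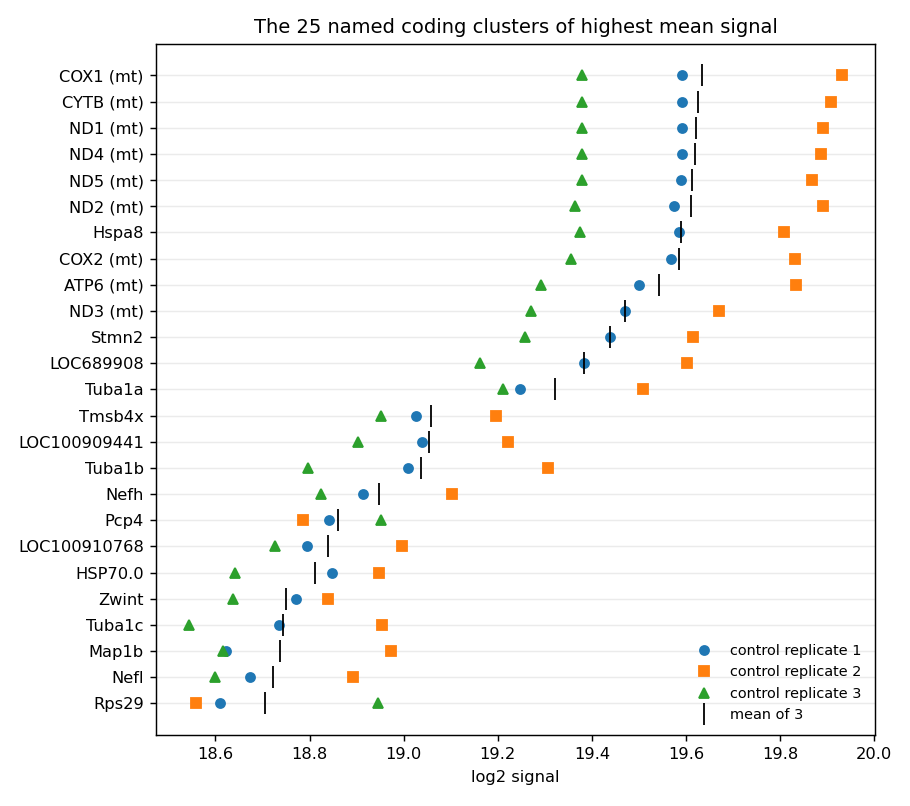
The 25 coding clusters with a single symbol that had the highest mean signal (x axis, log2 signal). Each point is 1 control animal, the tick is the mean of the 3, and (mt) marks mitochondrial genes. The means run from 18.7 to 19.6, and control replicate 2 lies to the right of the other arrays for all genes but Pcp4 and Rps29.

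The top of the ranking varied little between animals. The lists of the 25 highest clusters shared 23 members between control replicates 1 and 2, and 22 in each of the other pairs. Several leading genes have processed copies in the genome whose clusters gave signals nearly as high. An unassigned cluster described as similar to heat shock protein 8 read 19.03, and a pseudogene described as similar to glyceraldehyde-3-phosphate dehydrogenase read 18.82. Probes of such copies can bind the parent's RNA, so the levels of Hspa8, Gapdh, the tubulins and the ribosomal proteins are uncertain to that extent.

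To describe the tissue by cell type and function, 43 gene lists were used, of whose 678 symbols 654 were found. Where a gene had several clusters, the one with the highest mean stood for it. Of the 654 genes, 279 were above background (42.7%), against 25.7% of all coding clusters. Of the 56 genes with several clusters, 34 had clusters more than 1 log2 unit apart, and in 12 the call differed between clusters. In these whole ganglia, few cells of a type and little RNA per cell cannot be told apart.

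**Figure D3:**
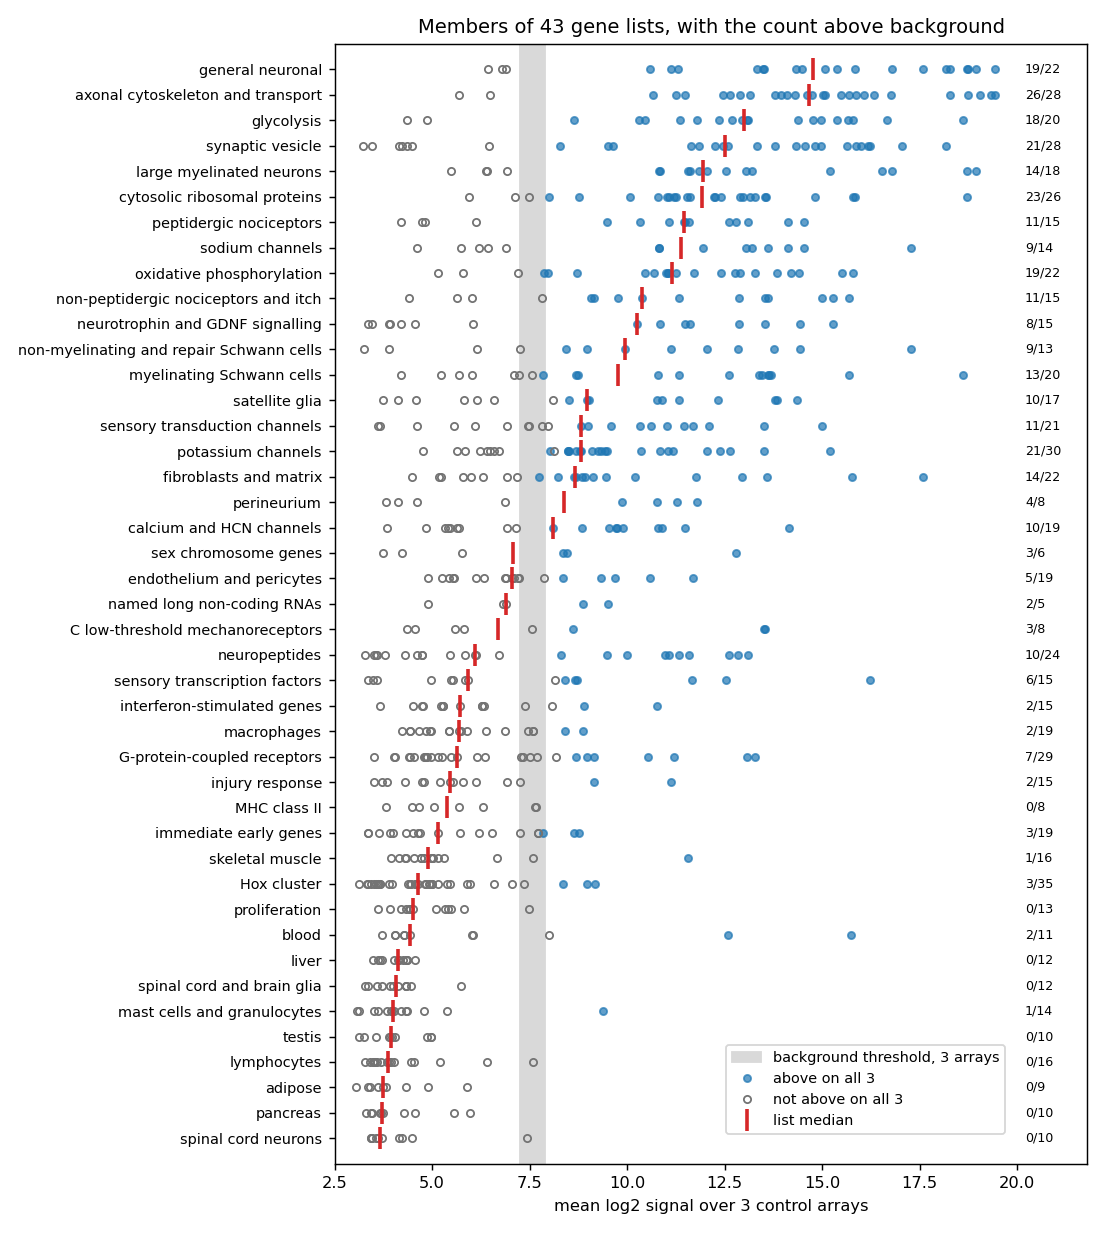
Mean log2 signal over the 3 control arrays (x axis) of the members of the 43 gene lists, in the order of their medians. Filled points were above background on all 3 arrays, open points were not, red ticks are list medians, the grey band spans the 3 thresholds, and the figures at the right give members above background of members found. General neuronal genes had a median of 14.8, and liver, pancreas, testis and spinal cord lists lay near 4.

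The general neuronal list had the highest median of all cell type lists, at 14.8. Other neuron lists lay lower, down to medians of 6.69 for C low-threshold mechanoreceptors and 5.92 for sensory transcription factors. Of 73 genes in the general neuronal, synaptic vesicle, and axonal cytoskeleton and transport lists, 61 were above background, with a median of 13.96. In the general neuronal list 19 of 22 passed and the median stood at the 98.6th percentile of coding clusters. The neuronal tubulin Tubb3 read 18.23, 18.53 and 18.10. Peripherin (Prph), the intermediate filament typical of peripheral neurons, read 15.80, 16.04 and 15.65. The members that did not pass were Uchl1, Scn2a and Scn3a. Uchl1, which encodes a deubiquitinase used as a pan-neuronal marker, read 6.76, 6.92 and 6.72, all below the threshold, with little difference between the animals.

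Except for Tuba4a (6.48) and Stmn4 (5.70), the genes of the axonal cytoskeleton and transport list were above background, in 26 of 28 cases. The motor genes Kif5a (16.07), Kif5b (15.69), Kif1b (15.03) and Kif1a (14.60), and the dynein heavy chain gene Dync1h1 (14.75), were among them. In the kinesin family as a whole, chosen by symbol after its values were seen, 13 of 44 clusters passed (29.5%), against 25.7% of all coding clusters. Of the synaptic vesicle list 21 of 28 passed. The SNARE gene Snap25 read 18.14, 18.27 and 18.14. The vesicular glutamate transporters Slc17a6 (12.58 ± 0.22) and Slc17a7 (11.85 ± 0.22) both passed, whereas Slc17a8, their relative, read 4.35. Transmitter genes of other neuron classes did not: Gad1, Gad2 and Slc32a1, which serve GABA, and Chat and Slc18a3, which serve acetylcholine, had means of 3.22 to 4.49.

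Nociceptor genes were prominent. In the peptidergic list 11 of 15 passed (median 11.5). Calca, the gene of CGRP, read 12.65, 12.41 and 12.74. Its paralog Calcb read 11.69, 11.21 and 11.88, and Tac1, the precursor of substance P, read 13.14, 13.22 and 12.92. The 3 animals differed by less than 0.7 log2 units in each of these peptide genes. The voltage-gated sodium channel genes of nociceptors were also well above the threshold. Scn10a, at chromosome 8, 128298584 to 128416900 on the minus strand in the deposited annotation, read 13.98, 14.50 and 13.92. Scn11a read 14.56, 14.71 and 14.31, and Scn9a, loss of which abolishes pain sensation in humans, read 13.69, 13.85 and 13.32. All 9 values were more than 5 log2 units above their array's threshold.

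The members of the peptidergic list that did not pass were Gal (6.13), Oprm1 (4.82), Nppb (4.74) and Bdnf (4.20). Oprm1 encodes the mu opioid receptor and Bdnf a neurotrophin that nociceptors make, and both lay under the threshold on all 3 arrays. In the non-peptidergic and itch list 11 of 15 passed (median 10.4). P2rx3, an ATP-gated channel, read 15.23, 15.20 and 14.53, and the GDNF family receptor tyrosine kinase Ret read 15.16, 15.60 and 15.06. The Mrg receptor genes Mrgprb4 (11.32), Mrgprx3 (9.77), Mrgprx1 (9.15) and Mrgprd (9.09), which mark itch-related and non-peptidergic neurons, passed as well. Control replicate 3 was lowest for 9 of the 15 genes, P2rx3, Mrgprx1 and Mrgprd among them.

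Large myelinated neurons were represented by 14 of 18 genes (median 11.95), including Kcna1 (15.19), Spp1 (16.54), Cntnap2 (13.20), Pvalb (11.56) and Ntrk3 (11.60), the receptor of neurotrophin 3 on proprioceptors. Runx3, Whrn, Calb1 and Cacna1h were under the threshold. For C low-threshold mechanoreceptors, unmyelinated neurons of gentle touch, 3 of 8 genes passed, and those 3, Gfra2 (13.53), Piezo2 (13.51) and Zfp521 (8.60), also serve other neurons. The defining genes of that class, Th (4.55), Slc17a8 (4.35) and Tafa4 (5.82), lay under the threshold on all 3 arrays. A transcript confined to a small class of neurons is diluted in a whole ganglion, and how far that bears on these genes was not tested.

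Among ion channels, the sodium channel list had 9 of 14 above background. Scn7a, a sodium-sensing channel of glial cells and some neurons, gave the highest signal of the list, at 17.32, 17.07 and 17.42. The channel gene of skeletal muscle, Scn4a (5.73), did not pass, and neither did Scn2a (6.43) and Scn3a (6.90), whose products are abundant in the brain. Of 30 potassium channel genes 21 passed, led by Kcna1, the tandem-pore channel gene Kcnk1 (13.50), Kcnab2 (12.64) and Kcnd1 (12.37). Calcium and HCN channel genes passed in 10 of 19 cases, among them Cacna2d1 (11.48), the binding site of gabapentin. The T-type gene Cacna1h, known from sensory neurons, had a mean of 6.93 and did not pass.

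Among sensory transduction channels 11 of 21 passed. The heat and capsaicin receptor gene Trpv1 read 10.38, 10.76 and 9.85. The irritant receptor gene Trpa1 (11.47 ± 0.18) and the cold receptor gene Trpm8 (11.69 ± 0.36) passed, as did Trpm3 (12.11), the touch channel gene Piezo2 (13.51) and the acid-sensing Asic1 (11.03) and Asic3 (10.62). Trpv4 (3.60), Piezo1 (4.61) and Tmc1 (3.67) lay far under the threshold on all 3 arrays. In the G-protein-coupled receptor list 7 of 29 passed (24.1%), close to the 25.7% of all coding clusters, and 11 passed without control replicate 3. The list median of 5.64 stood at the 53.5th percentile of coding clusters. The GABA-B receptor genes Gabbr2 (13.29) and Gabbr1 (13.08), the listed ligand-gated serotonin receptor gene Htr3a (11.20) and Htr1d (10.53), a target of triptans, led the list. The opioid receptor genes Oprk1 (7.50), Oprd1 (5.15) and Oprm1 (4.82) did not pass. Oprk1 was over the threshold on control replicates 1 and 2 and under it on control replicate 3. Without control replicate 3, 19 further listed genes passed, among them Oprk1, Ptgir, Cnr1 and Mrgpre.

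Of 24 neuropeptide and granule protein genes 10 passed: Tac1, Scg2 (12.85), Calca, Calcb, Chga (11.33), Sst (11.08), Nucb2 (10.98), Chgb (10.01), Adcyap1 (9.47) and Nmb (8.31). Peptides known to appear after nerve injury lay under the threshold, with Npy at 5.60, 5.27 and 5.52, Gal at 6.22, 6.13 and 6.03 and Vip at 3.40, 3.43 and 3.74. The animals differed by less than 0.4 log2 units in each of these. Of the 9 listed receptor genes for neurotrophins and the GDNF family 8 passed, among them Ret (15.27), Ngfr (14.44), Gfra2 (13.53), Gfra1 (12.87), Ntrk3, Ntrk2 (10.83) and Gfra3 (10.26). The other receptor gene, Gfra4 (3.92), did not. None of the 6 listed ligand genes passed, and Ntf3, the gene of neurotrophin 3, read 3.36.

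Of 16 listed transcription factor genes of sensory neurons 15 were measured, and Pou4f1 was not found under that symbol. Of the 15, 6 passed. Klf7 read 16.08, 16.44 and 16.14, and Isl1, a factor of all sensory neurons, read 11.65, 11.74 and 11.57. Etv1 (12.53), Drgx (8.71), Shox2 (8.65) and Runx1 (8.41), a factor of nociceptors, passed as well. Neurogenin genes, which act in the embryo, were at 3.37 (Neurog1) and 4.98 (Neurog2). Of 35 Hox genes, which record position along the body axis, 3 passed at their highest cluster, and those were of the middle paralog groups. Hoxa7 read 9.12, 9.43 and 8.95. Hoxa9 read 9.03, 9.22 and 8.67, and Hoxc9 read 8.27, 8.21 and 8.61. Of paralogs 1 to 5 none of 14 passed, of 6 to 11 these 3 of 15, and of 12 and 13 none of 6, the last group with a highest mean of 3.67. These calls rest on the choice of cluster: Hoxa7 had 1 of 2 clusters above background, Hoxa9 1 of 5 and Hoxc9 1 of 2, their lowest clusters read 5.98, 5.98 and 5.46, and with the median over a gene's clusters none of the 35 passed.

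**Figure D4:**
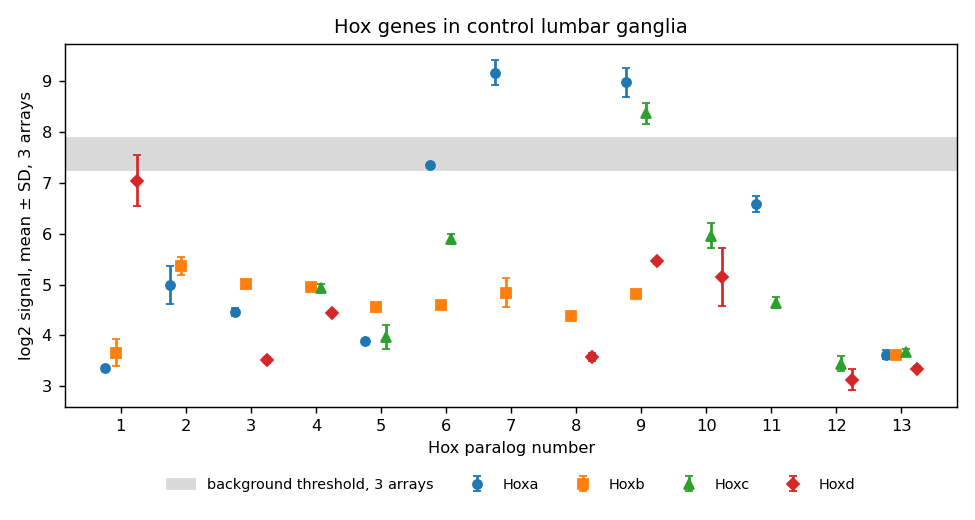
Log2 signal of 35 Hox genes (y axis, mean ± SD of 3 control arrays) by paralog number (x axis) and cluster (colour and shape). The grey band spans the background thresholds of the 3 arrays. Each gene is shown at its cluster of highest mean. Hoxa7, Hoxa9 and Hoxc9 lie above the band, Hoxa6 and Hoxd1 at or just under it, and the genes of paralogs 12 and 13 lie at 3.67 or lower.

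Glial genes were also well represented. Of 47 genes of satellite and Schwann cells 30 passed, with a median of 9.04. In the list of myelinating Schwann cells 13 of 20 passed, among them the myelin protein gene Pmp22 (15.70), Drp2 (13.70), Ugt8 (13.63), Cd9 (13.62), Pmp2 (13.45) and Ncmap (13.38). Myelin genes that peripheral and central myelin share did less well, with Mbp at 7.12, 7.24 and 6.97 and Mag at 5.69, both under the threshold on all 3 arrays. The signal of Mbp lay within 1 log2 unit of the threshold on each array.

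The satellite glia list passed in 10 of 17 cases, led by Glul (14.36), the enzyme that makes glutamine from glutamate, Cdh19 (13.83), Apoe (13.79) and the endothelin receptor gene Ednrb (12.33). Kcnj10, the inward rectifier typical of satellite glia, read 8.58, 8.35 and 8.57. Fabp7, a lipid carrier gene used to mark these cells, read 7.66, 6.997 and 9.61. It passed on control replicates 1 and 3 and not on control replicate 2, and its SD of 1.36 was the largest among the 18 fixed marker genes found. Gfap (4.14), Sox10 (6.14) and Gja1 (5.81) were under the threshold on all 3 arrays. In the list of non-myelinating and repair Schwann cells 9 of 13 passed, among them L1cam (13.76), Ncam1 (12.85) and Erbb3 (9.95), the neuregulin receptor gene.

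At the threshold used, matrix genes passed in a larger share (63.6%) than genes of vessels (26.3%), against 25.7% of all coding clusters. The gap was smaller at the 90th percentile of the intron controls, with 16 of 22 and 12 of 19, against 36.0% of all coding clusters. Of 22 fibroblast and matrix genes 14 passed, with the matrix protein genes Sparc (17.57 ± 0.06) and Dcn (16.20, 14.95 and 16.15) at the top. The perineurial list passed in 4 of 8 cases and included the glucose transporter gene Slc2a1 (11.79) and the tight junction gene Cldn1 (10.55, 9.01 and 10.04). Among endothelial and pericyte genes 5 of 19 passed, namely Rgs5 (11.48, 10.96 and 12.61), Acta2 (10.60), Cdh5 (9.70), Emcn (9.32) and Kdr (8.36). Pecam1, a standard endothelial marker, passed on control replicate 1 and on control replicate 2 and missed on control replicate 3.

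Immune genes were dim. Of 57 genes of macrophages, MHC class II, lymphocytes, mast cells and granulocytes 3 passed, and the median was 4.54. With the threshold at the 90th percentile of the intron controls 10 passed. The 3 were the complement gene C1qa (9.37, 8.38 and 8.86), the lysosomal Laptm5 (8.40) and Kit (9.37), a receptor gene that sensory neurons also express. Cd68, a lysosomal marker of macrophages, read 6.17, 5.51 and 6.00, and the MHC class II invariant chain gene Cd74 read 7.66, 7.04 and 8.17. Control replicate 2 was lowest for all 19 macrophage genes and for 12 of 16 lymphocyte genes. The T cell genes Cd3e (3.50), Cd3g (4.02) and Cd8a (3.49) and the B cell gene Ms4a1 (3.28) were at or under the level of the liver genes. Igkc (6.41) and Cd79a (5.20), of B cells, lay above every liver gene but under the threshold, and Cd4 (8.19, 6.77 and 7.80), which T cells and rat macrophages carry, exceeded the threshold on control replicate 1 alone. Of 11 blood genes 2 passed, the alpha globin genes Hba-a2 at 16.23, 15.20 and 15.81 and Hba1 at 12.96, 12.16 and 12.66. A further alpha globin gene, Hba-a1 (6.18, 5.90 and 6.01), was under the threshold on all 3 arrays, the beta globin genes in the list did not pass on all 3, and the red cell membrane gene Slc4a1 (4.04) lay far under the threshold.

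Lists of stress and growth genes passed in 0% to 15.8% of cases, against 25.7% of all coding clusters. Medians of the injury (5.46), immediate early (5.15) and interferon (5.71) lists lay close to the coding median of 5.34. At the 90th percentile of the intron controls these lists gave 4 of 15, 6 of 19 and 4 of 15, against 36.0% of all coding clusters. Of 15 injury response genes 2 passed, Gap43 (11.11) and Flrt3 (9.15), whereas Atf3, the textbook marker of an injured sensory neuron, read 4.91, 4.68 and 4.79 and Sprr1a read 3.73. Of 19 immediate early genes Jund (8.78), Nr4a2 (8.64) and Egr2 (7.84) passed, and without control replicate 3 also Dusp1 (7.73) and Nr4a1 (7.72), and Fos was at 6.20, 6.21 and 6.22. None of 13 proliferation genes passed, with Mki67 at 5.82 and Top2a at 4.50. The interferon list had 2 of 15 above background, Mx2 (8.90) among them.

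Genes of protein synthesis and energy supply were bright, as in most tissues. Of 68 such genes 60 passed, and the median was 12.2. The 26 genes of ribosomal proteins and elongation factors passed in 23 cases. Rpl11 (5.94), Rpl27 (7.13) and Rpl15 (7.48), did not. Their products are part of every ribosome, so for these genes a signal under the threshold does not mean that the gene is silent. Glycolysis passed in 18 of 20 cases, led by Gapdh (18.60 ± 0.13), Gpi (16.66), Aldoc (15.78) and Pfkp (15.67), and the exceptions were the isoforms of muscle and fat, Hk2 (4.87) and Slc2a4 (4.34). Actb, often used as a reference gene, read 9.41, 9.57 and 9.30.

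Genes of liver, pancreas and testis gave no signal above background. None of these 32 genes passed, and their highest value on any array was 6.30, in Ins2 on control replicate 3. None of 22 genes of spinal cord neurons and glia passed on all 3 arrays, and the highest was Slc5a7, the choline transporter gene, at 7.53, 7.56 and 7.17, over the threshold on control replicates 1 and 2. The oligodendrocyte genes Mobp (4.34) and Opalin (3.28) and the astrocyte gene Aqp4 (3.71) were at the level of the liver genes. Adipose genes were under the threshold in 9 of 9 cases. Sensory receptor families that serve the nose and tongue, chosen by symbol after their values were seen, gave 0 of 1258 olfactory, 0 of 188 vomeronasal and 0 of 37 bitter taste receptor clusters above background. With these chemoreceptors left out, 27.3% of 23270 coding clusters passed. On the Y chromosome, 4 of 10 coding clusters passed, Eif2s3y at 12.79 ± 0.42 among them, and the labels give the animals as male.

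Named non-coding RNAs with strong signals were few. The highest was the 7SL RNA of the signal recognition particle (Rn7sl1), at 19.59, 19.88 and 19.38. Bc1, a small neuronal RNA that represses translation in dendrites, read 19.11, 18.81 and 19.38 at a cluster of 1 probe on chromosome 11 and 17.56 ± 0.10 at a cluster of 30 probes on chromosome 1. Between them stood uncharacterized loci such as LOC102546568 (19.31) and LOC102553937 (18.94). Of the 5 long non-coding genes of the list that were found, Snhg11 (9.51) and the imprinted Meg3 (8.56, 9.42 and 8.61) passed, and Gas5 (6.88), Miat (6.82) and H19 (4.89) did not.

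MicroRNA precursors split by the origin of their annotation. Of 1626 precursor clusters 379 passed, but of 358 whose symbol is in the RefSeq table of rat microRNAs only 2 did (0.559%), against 377 of the other 1268 (29.7%). By source of annotation, 0 of 372 clusters taken from RefSeq and 287 of 872 taken from Ensembl (32.9%) passed. The 8 precursor clusters of highest mean had no symbol, read 19.60 to 19.63 and lay at the ceiling of the arrays. Among the 2 RefSeq symbols above background, Mir466c read 8.20, 8.66 and 9.40, and Mir544 (12.62) lies on another chromosome in the deposited annotation than in RefSeq, so its name is uncertain. Of the 358 clusters 346 lay on the same chromosome in both. The microRNAs miR-183, miR-96 and miR-182, made from a single transcript in sensory organs and sensory neurons, are shown because their precursors are those a reader would look for in this tissue, together with the precursor that passed. The clusters stand for precursors, so mature microRNA was not measured here. In the mature sequences, from RefSeq on build GRCr8, capitals mark the seed (bases 2 to 8).
rno-miR-183-5p: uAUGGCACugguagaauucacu
rno-miR-96-5p: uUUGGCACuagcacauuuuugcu
rno-miR-182: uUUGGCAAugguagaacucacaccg
rno-miR-466c-3p: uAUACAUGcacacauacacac
The first of these lies at chr4:59756106-59756127, the next at chr4:59755901-59755923 and the third at chr4:59752249-59752273, all on the minus strand, and the last at chr17:72927610-72927630, also on the minus strand. The seeds of miR-96 and miR-182 share all letters but the last. Mir183 read 3.51, 3.44 and 3.88, Mir96 3.10 ± 0.21 (SD, n = 3), and Mir182 2.95, 2.62 and 3.06. All were more than 3 log2 units under the threshold of their array, unlike those of Mir466c.

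The 3 animals resembled each other closely. Across all 68842 clusters Pearson's correlation between arrays was 0.997, 0.996 and 0.995 for the pairs 1 and 2, 1 and 3, and 2 and 3, a description across genes, which are not independent. Over coding clusters above background the median SD was 0.155 log2 units, and the range between the 3 arrays exceeded 1 log2 unit in 131 of 6356 clusters (2.06%). It exceeded 2 units in 8. Intron controls were less steady, with a median SD of 0.444 and a range over 1 in 40.0%. The steadiest named coding clusters above background were Cnot1, a scaffold of the deadenylase complex, at 10.59 on each array, and Slc25a36l1, Strbp, N4bp1, Mrps15 and Ap1s2.

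By gene list, control replicate 2 departed from the others in a patterned way. It was highest for 20 of 22 general neuronal genes, by a median of 0.27 log2 units over the mean of the other animals, and for 24 of 28 axonal and 24 of 30 potassium channel genes. It was lowest for 22 of 22 fibroblast and matrix genes, by a median of -0.50, for all 19 macrophage genes (-0.56), for 15 of 19 endothelial and pericyte genes (-0.35) and for 22 of 26 genes of ribosomal proteins and elongation factors (-0.31). Satellite glial genes were lowest there in 13 of 17 cases (-0.22). Control replicate 3 lay opposite, lowest for 18 of 22 general neuronal genes (-0.25) and highest for 17 of 22 matrix genes (0.39). These lists kept their direction on control replicate 2 when the arrays were centred on their medians or quantile normalized. The brightest band of coding clusters, over 16, also lay 0.13 higher on control replicate 2 than on the others. After quantile normalization it lay 0.01 higher, where the general neuronal genes still lay 0.18 higher. Not every neuron or glia list moved on control replicate 2. The median difference was -0.0004 for peptidergic and 0.004 for non-peptidergic nociceptors, and -0.06 for myelinating and 0.005 for non-myelinating Schwann cells. Each of these small differences turned sign under centring or quantile normalization.

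Skeletal muscle genes moved with that pattern and were larger in size. Control replicate 2 was highest for 15 of the 16 muscle genes, with a median difference of 1.20 log2 units, and the list median was 5.80 there against 4.46 and 4.47 on the other arrays. The actin gene Acta1 read 6.86, 9.06 and 6.86 and the myosin gene Myh1 read 4.30, 6.98 and 4.17. Of the 16 genes, 2 were above the threshold on control replicate 2, Acta1 and Pvalb, and only Pvalb, which proprioceptors express, on the others. The part of muscle tissue in the other differences of control replicate 2 was not tested.

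**Figure D5:**
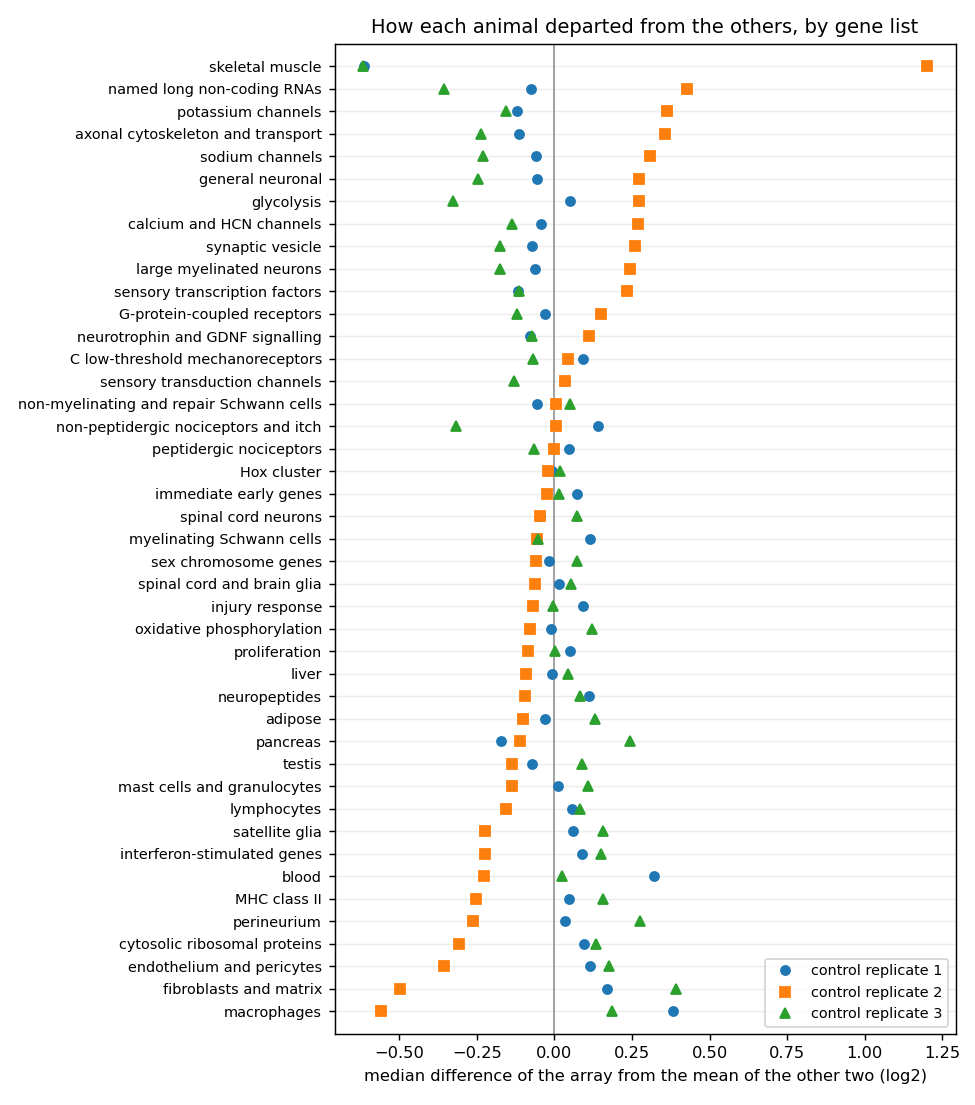
Difference of each control array from the mean of the other arrays (x axis, log2 units, median over the members of a list) for the 43 gene lists, in the order of control replicate 2. Blue circles, orange squares and green triangles are control replicates 1, 2 and 3. Muscle genes lie at 1.20 on control replicate 2, general neuronal genes at 0.27, axonal genes at 0.36, and matrix and macrophage genes near -0.5. The peptidergic and non-peptidergic nociceptor lists lie at -0.0004 and 0.004 there.

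Single genes that stood apart were few. Among 6152 coding clusters with a symbol and above background, 5 on control replicate 1, 18 on control replicate 2 and 12 on control replicate 3 lay at least 1 log2 unit beyond both other arrays. All 18 on control replicate 2 were lower there. Osteoglycin (Ogn), a small proteoglycan of connective tissue, read 13.36, 11.63 and 13.88. Igfbp5, a binding protein of insulin-like growth factors, read 12.25, 10.23 and 11.81, and the glypican gene Gpc3 read 10.19, 8.69 and 10.33. In each the other arrays lay within 0.6 log2 units of each other. On control replicate 3 the pericyte gene Rgs5 and the interferon-induced Ifitm1 (7.97, 7.46 and 9.17) were high, with Tatdn3 and Abhd1, and the itch receptor gene Mrgprx1 (9.74, 9.46 and 8.26) was low. On control replicate 1 the purinergic receptor gene P2rx4 was high (9.80, 8.36 and 8.30) and Ldaf1, a lipid droplet assembly factor, was low (10.51, 11.98 and 12.20).

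A pair of clusters on chromosome 17 exceeded every other coding cluster above background in spread. Serpinb1b, of the clade B family of serine protease inhibitors, read 16.06, 10.44 and 10.33, a 52.9-fold range of signal. LOC102553010 read 16.70, 10.93 and 10.40, a 79.1-fold range. In both, control replicate 1 was high and the other animals were alike. The deposited annotation places them on the minus strand at 32550390 to 32559327 and at 32009398 to 32015086. The next largest SD among named coding clusters above background was 1.25, against 3.28 and 3.50 for this pair. Neighbouring clusters were looked at after these values were seen, and none showed a step as large as that of this pair. Serpinb9 read 11.51, 10.72 and 11.23, and Serpinb1a read 15.88, 14.86 and 15.23. Both were highest on control replicate 1, by 0.54 and 0.83 log2 units over the mean of the other animals. Mylk4, Serpinb6e, Serpinb9d and Serpinb9b were under the threshold on all 3 arrays. Whether Serpinb1b and LOC102553010 share probe sequence was not tested. Without control replicate 1 both remain above background, at the levels of the other animals given above.

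A few coding clusters that were not above background on all 3 arrays differed as much. Their range exceeded 2 log2 units in 13 of 18397, and those named here were chosen after their values were seen. Srd5a2, which encodes the type 2 steroid 5-alpha-reductase that makes dihydrotestosterone, read 8.97, 12.90 and 6.97 at a cluster of 77 probes on chromosome 6, 25258114 to 25315511. A separate cluster with the same symbol in capitals, of 30 probes on chromosome 6 at 22597839 to 22598117, read 6.00, 10.77 and 3.89. Both clusters put control replicate 2 highest and control replicate 3 lowest, and whether they share probe sequence was not tested. Casr, the calcium-sensing receptor gene, read 4.88, 5.08 and 7.99, which on control replicate 3 alone exceeded the threshold. The chemokine gene Cxcl13 (6.91, 5.83 and 8.24) and the chemokine receptor gene Ccr2 (8.48, 5.99 and 7.82) were lowest on control replicate 2, as was the MHC class II gene RT1-Da (7.96, 6.42 and 8.59). Acta1 and Myh1, described above, were the muscle genes among the 13.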

How the data were processed

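Each deposited value is a log2 signal of 1 transcript cluster, and the file headers name the method as gene-level SST-RMA. Per the submitters' processing notes RMA was used. RMA by itself subtracts background, equalises probe distributions between arrays and summarises probes on the log2 scale, which compresses differences of dim clusters. The SST step that the headers name is not covered by this description. Its effect on signal ranges and fold ranges was not tested. For the genome build, the software version and which arrays were normalized together, the answer was not given in the sources used here. Coordinates stand as deposited. All 211740 detection calls of the control arrays read absent and were not used. Symbols came from the deposited annotation, 2402 of them updated through RefSeq names of GRCr8.

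Values of the 3 control arrays were used as deposited, in Python 3.11.15 with pandas 2.3.3 and numpy 2.4.6. A cluster was above background where it exceeded the 95th percentile of intron controls on all 3 arrays. Means and SD are over 3 animals, and the number of arrays limits precision. No test was run. The counting was tested on simulated data. Members, gene lists and the rule for named genes (the highest clusters per locus type, list members, the most and least variable clusters, those farthest apart per array, and 19 fixed genes, of which Xist was not found under that symbol) were chosen with earlier results of these data known. Alternatives covered the threshold, the scaling, the summary and leaving out each animal. Some genes counted in the lists are not reported here by name.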

Additional observations from a re-analysis of the deposited data

How the results depend on the processing

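The calls depend most on the threshold. At the 99th percentile of the intron controls, 1355 coding clusters, 153 non-coding clusters and 133 listed genes were above background, and at the 90th percentile 715 non-coding clusters were, in place of 449. By list, the 90th percentile gave 6 macrophage genes above background in place of 2, 2 MHC class II genes and 1 lymphocyte gene in place of 0, 12 endothelial and pericyte genes in place of 5 and 12 G-protein-coupled receptor genes in place of 7, and it moved 11 of 43 lists by over 1.5 times. By the same measure the 99th percentile moved 27 of 43 lists and left 16 the same. Potassium channel genes fell from 21 to 4, calcium and HCN channel genes from 10 to 1 and sensory transduction channels from 11 to 3. Satellite glia genes fell from 10 to 3, fibroblast and matrix genes from 14 to 3 and peptidergic nociceptor genes from 11 to 5. The median over a gene's clusters moved the Hox list alone, from 3 to 0. No gene of liver, pancreas or testis and none of 1483 chemoreceptor clusters passed under any threshold, scaling or omission tried. Leaving out each animal gave 6357 to 7414 coding clusters, 450 to 537 non-coding clusters and 279 to 298 listed genes, the highest without control replicate 3, whose threshold is the highest. The medians stayed within 5.33 to 5.34 (coding) and 3.58 to 3.65 (non-coding), and 24 to 25 of the 25 leading coding clusters remained. The median SD ranged from 0.107 without control replicate 2 to 0.168 without control replicate 1. Taken over all coding clusters, those at least 1 log2 unit apart numbered 11, 54 and 29 on control replicates 1, 2 and 3. Without control replicate 2, Fabp7, Cd74, Mrc1 and RT1-Da also passed. The scaling of the list differences was varied after the values were seen. Of 43 lists, 10 on control replicate 2 turned sign under centring and 8 under quantile normalization. Among those were the nociceptor and Schwann cell lists with small differences, but no list described as mostly highest or lowest on that animal. No paired analysis was possible because a single group is described and no test between groups was run.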
